A study of Mus musculus with 16 samples.

Results

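The genes described here encode 3 cytokine systems of microglia, namely TNF with its receptors (Tnf, Tnfrsf1a and Tnfrsf1b), IL-6 with its receptor subunits and the related subunit EBI3 (Il6, Il6ra, Il6st and Ebi3), and the IL-10 receptor (Il10ra and Il10rb). They were chosen by gene symbol, with earlier results of these data known, and make up 9 of the 20267 genes in the deposited table. All 9 were measured above 1 CPM (reads assigned to a gene, scaled to the same library total) in at least 4 libraries and entered the tests. The gene of the IL-10 ligand itself was not analysed here.

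TNF is made as a membrane protein that the protease ADAM17 releases, and it signals through TNFR1, which engages death-domain adaptors and NF-kB, and TNFR2, which lacks a death domain and is typical of immune and endothelial cells. IL-6 binds IL-6R, and the complex then pairs with gp130, the shared signaling chain of the IL-6 family, to activate JAK kinases and STAT3. IL-10 binds the chains IL-10RA and IL-10RB and also acts through STAT3, by which it restrains inflammatory genes. The kinase p38α acts upstream of MK2, which stabilizes the mRNA of cytokines such as TNF and IL-6, and for that reason these genes are of interest where p38α is removed.

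Microglia were sorted as CD11b+/P2ry12+ cells from 11-month-old mice, about 10000 cells per mouse, and 4 mice in each of 4 groups were sequenced. AD mice carried the APPswe/PS1dE9 transgene in the hemizygous state and WT mice did not. All mice, controls included, were homozygous for a floxed Mapk14 allele (the gene of p38α, p38fl/fl) and ate tamoxifen at 400 ppm for 4 weeks from 5 months of age. The p38KO mice in addition carried 1 copy of Cx3cr1-creERT2, a tamoxifen-inducible Cre inserted in the Cx3cr1 gene, and the p38+/+ mice carried no Cre, so that loss of p38α and loss of 1 intact Cx3cr1 copy cannot be told apart. Each background thus has a p38+/+ and a p38KO group, with 11 libraries labelled male and 5 female. The sort required P2ry12, so cells that had lost this protein were not sampled. The RNA is that of the sorted population, in which fewer cells of a type and less RNA per cell cannot be told apart.

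The knockout was visible in the Mapk14 transcript of isoform 1, at 47.1 to 82.6 CPM in p38+/+ libraries from WT and 58.5 to 71.0 CPM in those from AD mice, against at most 0.248 CPM in any p38KO library, while the Mapk14 gene total stayed between 138 and 210 CPM in all 16. Cx3cr1 fell by 1.17 on the log2 scale with the knockout in WT and by 1.08 in AD mice (limma, adjusted p = 4.4e-06 and 1.6e-05). All 11 microglial markers were detected (summed level 60180 to 73760 CPM), and other cell types were present at far lower sums. These were 146.5 to 276.6 CPM for 6 astrocyte, 82.7 to 144.1 CPM for 5 oligodendrocyte, 22.8 to 139.7 CPM for 8 border-associated macrophage, 16.9 to 48.0 CPM for 7 endothelial and mural and 3.83 to 25.2 CPM for 3 monocyte and granulocyte markers. The sums were at most 5.87 CPM for 6 neuronal and 1.20 CPM for 3 lymphocyte markers, and the part of any of these in the results was not tested. Depth was about 12.3 to 16.4 reads for each CPM, so 3 reads, taken as the floor, corresponded to 0.183 to 0.244 CPM. Fewer genes were detected in the AD p38KO libraries (15485 to 16852) than in the rest (16987 to 18054), and AD p38KO mice 4 and 1 stood apart on the first 2 principal components (108.8 on the first and -75.5 on the second).

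Across the 16 libraries the receptors of TNF and IL-6 were far above their ligands. Divided by transcript length, Il10ra was highest at 232 ± 28.8 CPM per kb (SD, n = 16), followed by Tnfrsf1b at 156 ± 21.3, Il10rb at 148 ± 14.3, Il6st (gp130) at 136 ± 20.3, Tnfrsf1a at 129 ± 11.6 and Il6ra at 91.9 ± 13.9 CPM per kb. Ebi3 stood at 31.4 ± 7.90, Il6 at 8.66 ± 2.03 and Tnf at 2.22 ± 2.34 CPM per kb. Il10ra was above Tnfrsf1b in 16 of 16 libraries. The next 3 in the order were not separated from their neighbours, since Tnfrsf1b exceeded Il10rb in 8 libraries, Il10rb exceeded Il6st in 12 and Il6st exceeded Tnfrsf1a in 8. From Tnfrsf1a downwards, each gene lay above the next in at least 15 of 16 libraries.

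**Figure D1:**
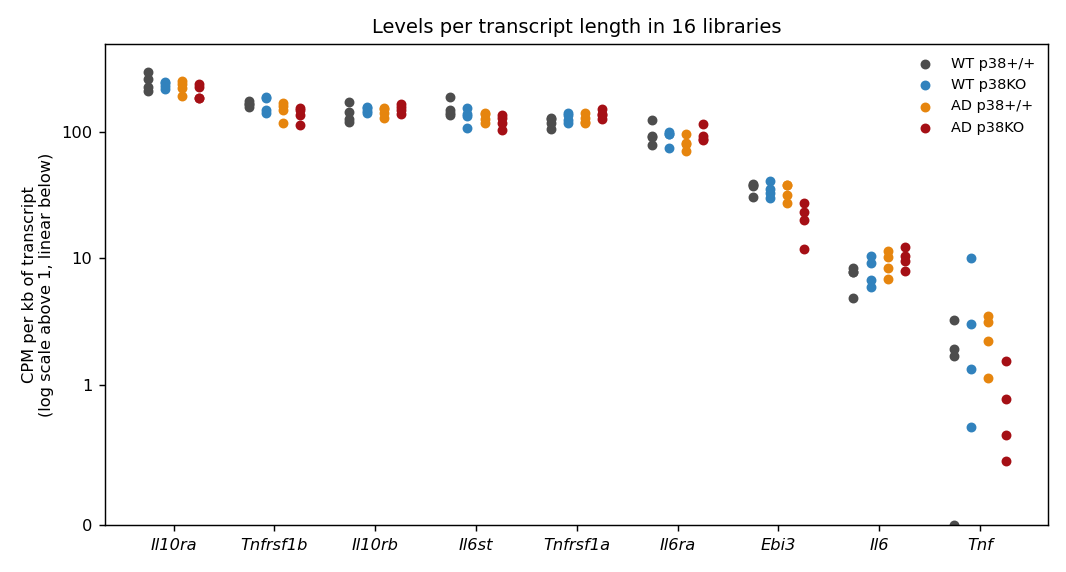
Level of the 9 genes in CPM per kb of transcript (y axis, log scale above 1 and linear below), with 1 point per library, coloured by group and ordered by the mean over 16 libraries. The 6 receptor genes lie between 71.1 and 298 CPM per kb, and Il6 and Tnf lie at 12.3 CPM per kb or lower.

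None of the 9 genes passed an adjusted p under 0.05 in any of the 7 comparisons (limma-trend on log2(CPM + 0.5), adjusted over 13912 genes). Among all genes tested, 0.359% were called in AD p38+/+ against WT p38+/+, 0.323% in AD p38KO against WT p38KO, 0.0503% in AD p38KO against AD p38+/+ and 0.00719% in WT p38KO against WT p38+/+. The shares were 1.03% for the APP/PS1 main effect, 0.0791% for the p38 KO main effect and 0% for the interaction of both. With so few genes called at all, 0 of 9 is close to the background.

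At an unadjusted p under 0.05, 0 of 9 genes differed in AD p38+/+ against WT p38+/+ (7.11% of all genes), 2 in AD p38KO against WT p38KO (9.56%), 1 in AD p38KO against AD p38+/+ (6.99%) and 0 in WT p38KO against WT p38+/+ (3.53%). The APP/PS1 main effect gave 2 (12%), the p38 KO main effect 1 (5.9%) and the interaction 1 (3.92%). These were Ebi3 in 5 comparisons and Tnfrsf1b in 2. The comparisons share groups, so the counts are not independent. The median log2 fold change of the 9 genes lay between -0.15 and -0.01 over the 7 comparisons, beside -0.06 to 0.02 for all genes.

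**Figure D2:**
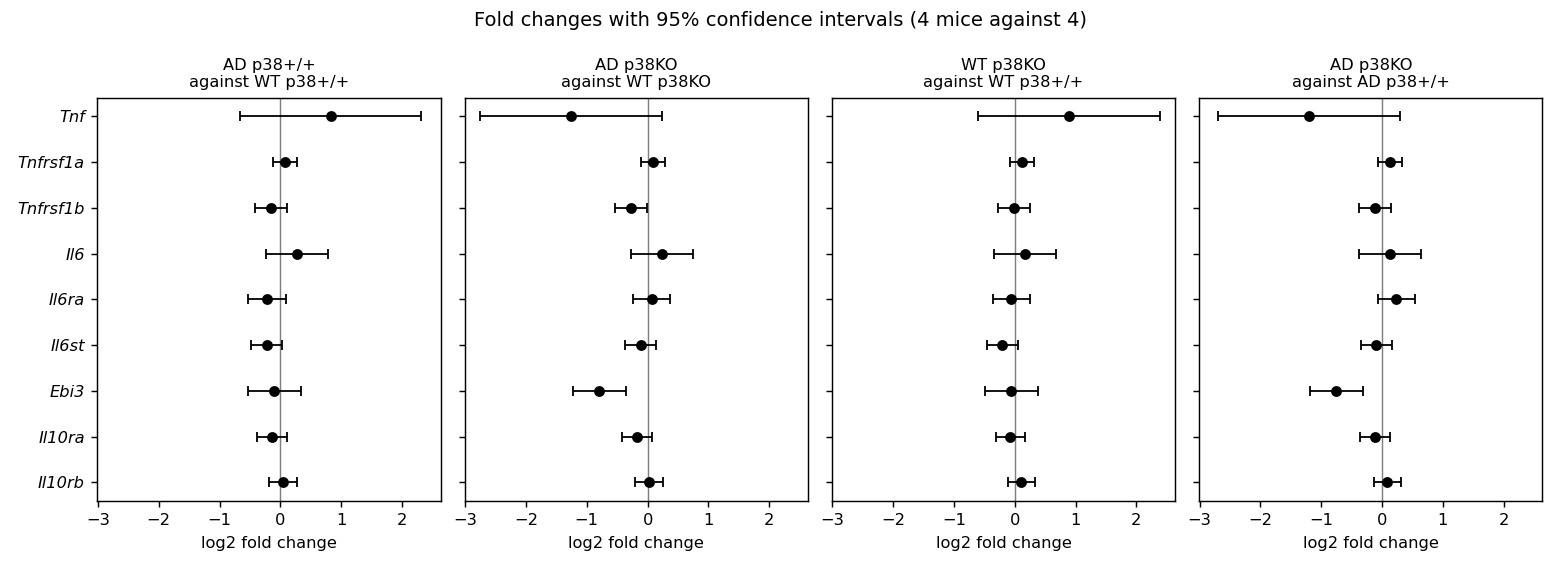
Log2 fold change (x axis, points) with 95% confidence interval (bars) for each gene in the 4 pairwise comparisons, 4 mice against 4. The intervals exclude 0 for Ebi3 in the 2 comparisons that involve AD p38KO and for Tnfrsf1b in AD p38KO against WT p38KO, none of which passed the adjusted threshold.

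Ebi3 encodes a soluble, receptor-like subunit that joins other chains to form cytokines such as IL-27. It lies on chromosome 17 from 55952640 to 55957022 (GRCm38, plus strand), and Gm16712 on the other strand overlaps it. In WT p38+/+ mice 1 to 4 it was 43.0, 43.7, 44.8 and 35.5 CPM, and in WT p38KO mice 38.4, 47.1, 40.7 and 34.8 CPM. In AD p38+/+ mice it was 37.0, 44.0, 31.8 and 44.0 CPM, and in AD p38KO mice 23.2, 31.9, 26.9 and 13.7 CPM. The 3 other groups covered much the same range, whereas the AD p38KO libraries were all below WT p38KO, and met AD p38+/+ only where AD p38KO mouse 2 (31.91 CPM) edged past AD p38+/+ mouse 3 (31.80 CPM).

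The means of Ebi3 in the p38+/+ groups were 41.7 ± 4.21 CPM for WT and 39.2 ± 5.92 for AD mice, and in the p38KO groups 40.3 ± 5.16 for WT and 23.9 ± 7.71 CPM for AD mice (SD, n = 4 each). The log2 difference between AD p38KO and WT p38KO was -0.80 (SE 0.206, 95% interval -1.23 to -0.36, limma adjusted p = 0.133). It was the single gene of the 9 whose groups did not overlap in that comparison, where 4.93% of all genes did not overlap. Between AD p38KO and AD p38+/+ the difference was -0.75 (95% interval -1.19 to -0.32, limma adjusted p = 0.363), and between the other pairs it was -0.10 and -0.05. The interaction term, which tests whether the p38 difference itself differs between AD and WT mice, was -0.70 (95% interval -1.31 to -0.08, limma adjusted p = 1.00). In the other 3 pairwise comparisons no member's groups were disjoint, beside 5.23% of all genes in AD p38+/+ against WT p38+/+, 3.34% in AD p38KO against AD p38+/+ and 2.72% in WT p38KO against WT p38+/+.

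The order of Ebi3 within the AD p38KO group followed the number of genes detected, which was 15485 in mouse 4, 16042 in mouse 1, 16677 in mouse 3 and 16852 in mouse 2. No other group kept that order. In AD p38+/+, mouse 3 had the most genes detected (18054) and the lowest Ebi3 (31.8 CPM). The summed level of the 11 microglial markers was also lower in AD p38KO (60750 to 62920 CPM) than in WT p38KO (63290 to 67420 CPM). None of the markers was at 0. In AD p38+/+, mouse 1 had the lowest sum of all 16 libraries, 60180 CPM, beside 37.0 CPM of Ebi3. The sums of mice 2, 3 and 4 were 66540, 68160 and 67850 CPM, all above AD p38KO. The markers include Cx3cr1, the gene that carries the Cre, whose AD means were 6764 CPM with and 3189 CPM without p38α. Sums of p38KO and p38+/+ mice therefore differ in part through this gene. The part of the genes detected and of the marker sums in the Ebi3 values was not tested. Without AD p38KO mouse 4 the log2 difference was -0.55 from WT p38KO (adjusted p = 0.202) and -0.51 from AD p38+/+ (adjusted p = 0.516). Without mice 1 and 4 it was -0.44 (limma adjusted p = 0.584) and -0.40 (limma adjusted p = 0.899). The direction stayed and the size was reduced by over 1.5 times. Mice 4 and 1 held the lowest Ebi3 values of the group (13.7 and 23.2 CPM), so leaving them out could only raise the group's mean.

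**Figure D3:**
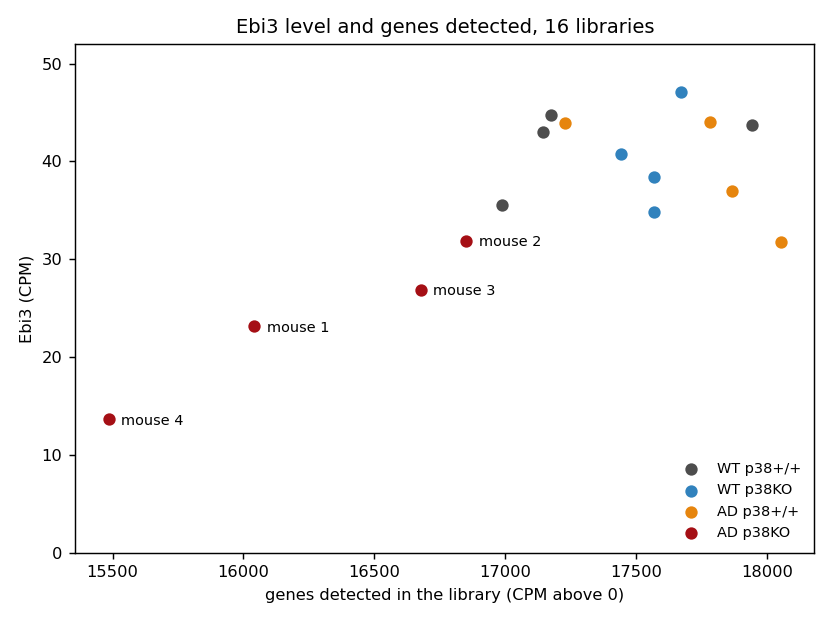
Ebi3 level (y axis, CPM) against the number of genes detected (x axis) in each of 16 libraries, coloured by group, with the AD p38KO mice numbered. The 4 AD p38KO points lie at the lower left, from mouse 4 at 13.7 CPM and 15485 genes to mouse 2 at 31.9 CPM and 16852 genes.

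The p28 chain that joins EBI3 in IL-27 was scarce in these libraries. Its gene, Il27, was 0 to 2.74 CPM, and Il27ra, the receptor of IL-27, 0 to 4.15 CPM; both were picked after their values were seen, and 0 of 7 tests called either. Il12a was not analysed here.

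Tnf (chromosome 17, 35199381 to 35202007, minus strand) was the scarcest of the 9 genes. It was 3.12, 5.36, 0 and 2.76 CPM in WT p38+/+ mice 1 to 4, where the listed 0 of mouse 3 allows up to 0.228 CPM. WT p38KO mice had 2.20, 16.4, 1.15 and 4.94 CPM. The AD p38+/+ mice had 5.69, 1.86, 5.14 and 3.69 CPM, and their p38KO counterparts 0.752, 2.55, 1.48 and 1.15 CPM. WT p38KO mouse 2 held the highest value by far, the AD p38KO libraries were low throughout, and all pairs of groups overlapped.

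The log2 differences of Tnf were 0.83 (95% interval -0.66 to 2.32) for AD p38+/+ against WT p38+/+ and -1.26 (-2.75 to 0.23) for AD p38KO against WT p38KO. For the knockout they were 0.89 (-0.60 to 2.38) in WT and -1.20 (-2.69 to 0.29) in AD mice. The interaction was -2.09 (-4.20 to 0.02, limma adjusted p = 1.00). The pairwise intervals reached from 0.632-fold to 4.998-fold for AD p38+/+ against WT p38+/+ and from 0.155-fold to 1.22-fold for the knockout in AD mice, so each of these includes no difference as well as one of several-fold, in a single direction. Without WT p38+/+ mouse 3 the differences from WT p38+/+ came to 0.07 in AD p38+/+ and 0.13 in WT p38KO.

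Tnf is among the genes that tissue dissociation can induce, and 21 immediate early and dissociation genes were therefore summed in each library. In p38KO mice the sum was 1382 to 1473 CPM on the AD and 1228 to 1805 CPM on the WT background, and in p38+/+ mice 1516 to 2044 CPM for AD and 1292 to 2379 CPM for WT. AD p38KO thus lay below AD p38+/+ in this sum, and WT p38KO mouse 2, with 16.4 CPM of Tnf, had the highest sum of its group, 1805 CPM. WT p38KO mouse 1 came close to it, with a sum of 1775 CPM, beside 2.20 CPM of Tnf. The highest sum of all 16 libraries, 2379 CPM in WT p38+/+ mouse 1, stood beside 3.12 CPM of Tnf. The part of this in the Tnf values was not tested. In the same list the chemokine genes Ccl3 and Ccl4 and the immediate early transcription factor Egr2 rose in AD mice over both p38 genotypes (APP/PS1 main effect), by 2.54, 2.07 and 2.10 on the log2 scale (limma, adjusted p = 0.000811, 0.000521 and 0.00669), and these calls held in 16 of 16 fits that left out 1 library. Within a p38 genotype, Ccl3 and Ccl4 were also called, with adjusted p of 0.0378 and 0.0347 in p38+/+ and 0.0436 and 0.0294 in p38KO mice (limma), but these calls held in 5 to 11 of the 16 fits, with adjusted p (limma) of 0.00707 to 0.207. The other 17 of 20 genes tested in that list were not called in any comparison.

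**Figure D4:**
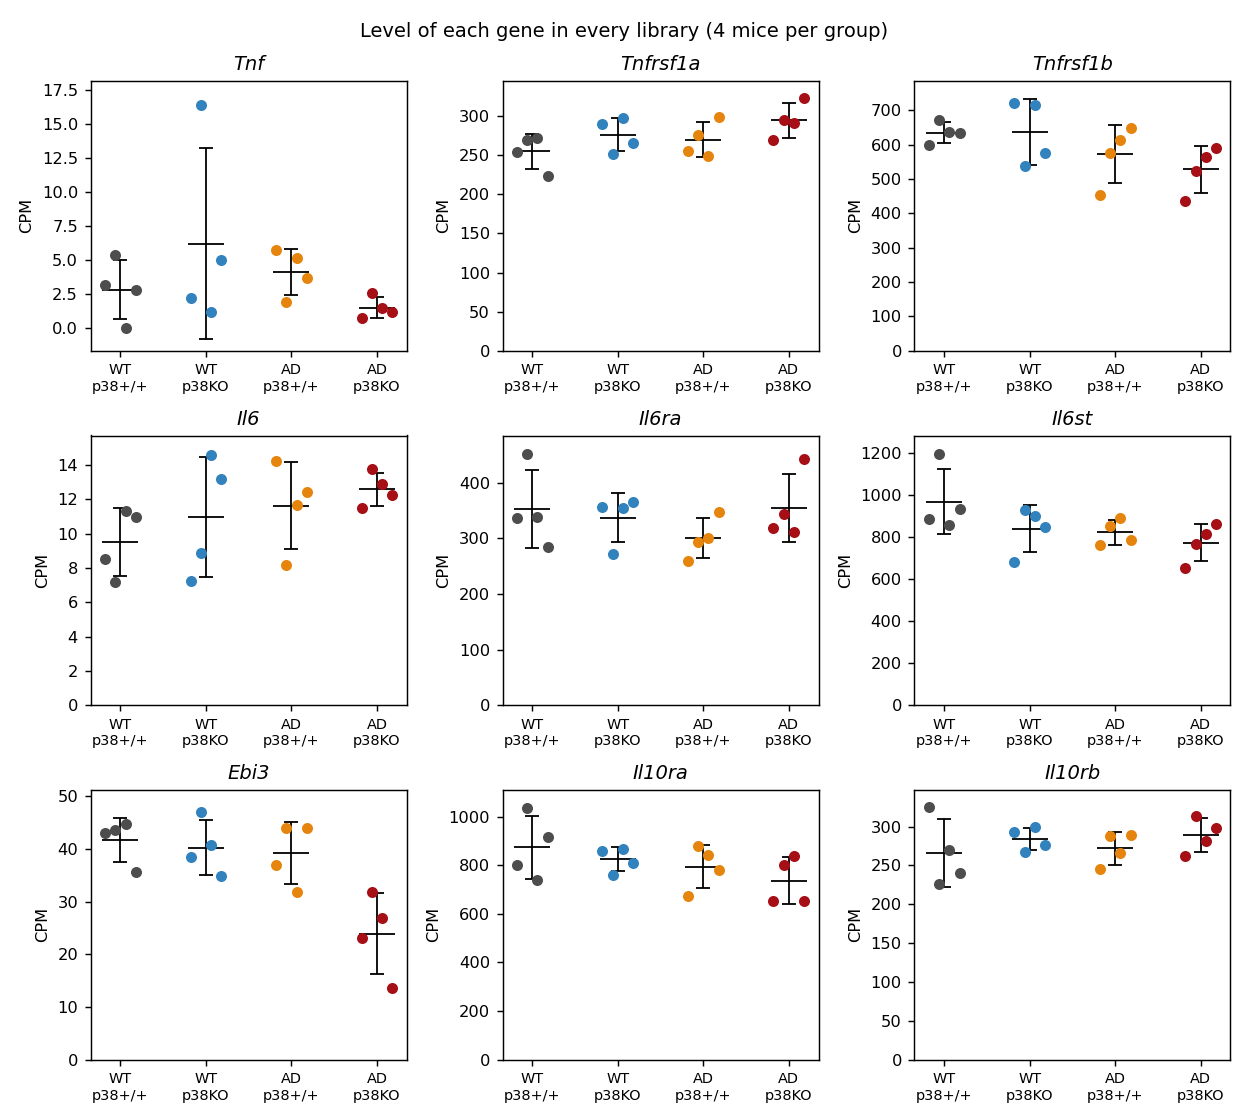
Level of each of the 9 genes (y axis, CPM) in the 16 libraries, by group on the x axis, with 1 point per mouse, the mean as a horizontal line and the SD as bars (n = 4). Ebi3 is low in AD p38KO (13.7 to 31.9 CPM), Tnf has a single high library in WT p38KO (16.4 CPM), and for the other 7 genes the groups overlap in each of the 4 pairwise comparisons.

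Tnfrsf1b (TNFR2; chromosome 4, 145213463 to 145246870, minus strand) was 598, 670, 638 and 635 CPM in WT p38+/+ mice 1 to 4, whereas WT p38KO mice had 722, 537, 716 and 575 CPM. In AD p38+/+ mice it was 453, 575, 613 and 648 CPM, and AD p38KO mice had 435, 522, 564 and 591 CPM. The AD libraries reached lower values, but each AD group overlapped its WT counterpart. The difference between AD p38KO and WT p38KO was -0.27 on the log2 scale (95% interval -0.53 to -0.01, limma adjusted p = 0.514), and the APP/PS1 main effect was -0.21 (-0.40 to -0.03, limma adjusted p = 0.327).

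Tnfrsf1a (TNFR1; chromosome 6, 125349362 to 125362484, plus strand) varied least of the 9 genes over the 16 libraries (SD 8.97% of the mean). WT p38+/+ mice had 255 ± 22.4 CPM and WT p38KO mice 276 ± 20.98 CPM. AD p38+/+ mice had 270 ± 22.6 CPM and AD p38KO mice 295 ± 22.02 CPM (SD, n = 4 each). Its log2 differences lay between 0.08 and 0.13 in the 4 pairwise comparisons, and the bounds of their 95% intervals lay between -0.12 and 0.33, or 0.923-fold and 1.25-fold. The ratio of Tnfrsf1b to Tnfrsf1a per kb was 1.39 ± 0.130 with and 1.28 ± 0.0909 without p38α in WT mice, and 1.18 ± 0.158 with and 0.998 ± 0.0841 without it in AD mice (SD, n = 4 each), which describes the opposite signs of the receptors' differences and was not tested.

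Around TNF, 28 other ligands and receptors of its superfamily were in the table and 22 were tested. Only Tnfsf8, the CD30 ligand, was called, in the APP/PS1 main effect alone (log2 1.22, limma adjusted p = 0.0489), and this call held in 6 of 16 fits that left out 1 library (adjusted p = 0.0327 to 0.113). Its range was 1.35 to 3.41 CPM in WT p38+/+ and 5.37 to 13.7 CPM in WT p38KO mice. It was 5.39 to 20.8 CPM in AD p38+/+ and 8.08 to 20.1 CPM in AD p38KO mice. The WT p38+/+ libraries were thus the low ones, and the other 3 groups overlapped. The most abundant of the superfamily were Tnfrsf21 (death receptor 6) at 803 ± 66.6, Tnfrsf11a (RANK) at 269 ± 33.1 and Tnfrsf13b (TACI) at 110 ± 19.1 CPM (SD, n = 16). Of 37 genes of TNF shedding, adaptors and NF-kB that were tested, 0 were called in any comparison. In each, 0 to 5 had an unadjusted p under 0.05, beside 3.53 to 12% of all genes. Adam17, Casp8 (the apoptosis-initiating caspase) and Rela (the p65 subunit of NF-kB) led this list at 396 ± 30.4, 215 ± 18.8 and 210 ± 22.7 CPM (SD, n = 16).

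Il6 (chromosome 5, 30013114 to 30019981, plus strand) was low but present in every library. It was 8.55, 7.18, 11.3 and 10.99 CPM in WT p38+/+ mice 1 to 4, and 7.24, 8.88, 14.6 and 13.2 CPM in WT p38KO mice. AD p38+/+ mice had 14.2, 8.21, 11.7 and 12.4 CPM, and their p38KO counterparts 11.5, 13.8, 12.9 and 12.2 CPM. The AD p38KO libraries lay close together (11.5 to 13.8 CPM), and the groups overlapped in each of the 4 pairwise comparisons. The log2 differences were 0.27 (95% interval -0.24 to 0.79) for AD p38+/+ against WT p38+/+, 0.24 (-0.28 to 0.76) for AD p38KO against WT p38KO, 0.13 (-0.38 to 0.65) for the knockout in AD and 0.17 (-0.35 to 0.68) in WT mice. The lowest adjusted p of these was 0.806 (limma).

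The transcript table lists 4 transcripts of Il6, and it placed few reads on the one that encodes the standard protein. Il6-201 (CCDS19153, 5 exons, 633 coding bases) was above the floor of 3 reads in 5 of 16 libraries, at no more than 0.979 CPM, and at most 0.0255 CPM in the other 11. Il6-203 and Il6-204 together held 89.2 to 100% of the Il6 CPM (median 97.5%). Il6-203 keeps the 1226 bases of the last intron (chr5:30018155-30019380), and Il6-204 opens with 55 bases of intron 1 (chr5:30013321-30013375).

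The coding stretches across the end of exon 4 show where the models part. The 24 bases of exon 4 are in lower case, and the 60 bases that follow are in capitals, from exon 5 in Il6-201 and from the kept intron in Il6-203 (GENCODE M21, GRCm38, plus strand).
Il6-201: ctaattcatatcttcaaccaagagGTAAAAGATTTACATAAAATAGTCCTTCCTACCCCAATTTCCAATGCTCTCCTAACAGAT
Il6-203: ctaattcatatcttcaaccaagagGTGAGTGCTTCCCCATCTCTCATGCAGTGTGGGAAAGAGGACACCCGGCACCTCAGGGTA
In Il6-201, 165 coding bases follow exon 4, and in Il6-203, 156 do. Il6-201 has 30 bases that no other listed Il6 transcript holds, against 1232 bases of Il6-203 and 55 of Il6-204 outside its exons, so the split among transcripts is an estimate.

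The mean level was 4.89 ± 2.04 CPM for Il6-203 and 5.95 ± 1.73 CPM for Il6-204 (SD, n = 16). The share of Il6-203 ranged from 17.2% in WT p38+/+ mouse 1 to 68.7% in AD p38KO mouse 3, and that of Il6-204 from 31.3% to 72.0%. The same group held libraries near either end, as AD p38KO mouse 2 had 23.2% of Il6-203. Neither transcript was called in any comparison.

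**Figure D5:**
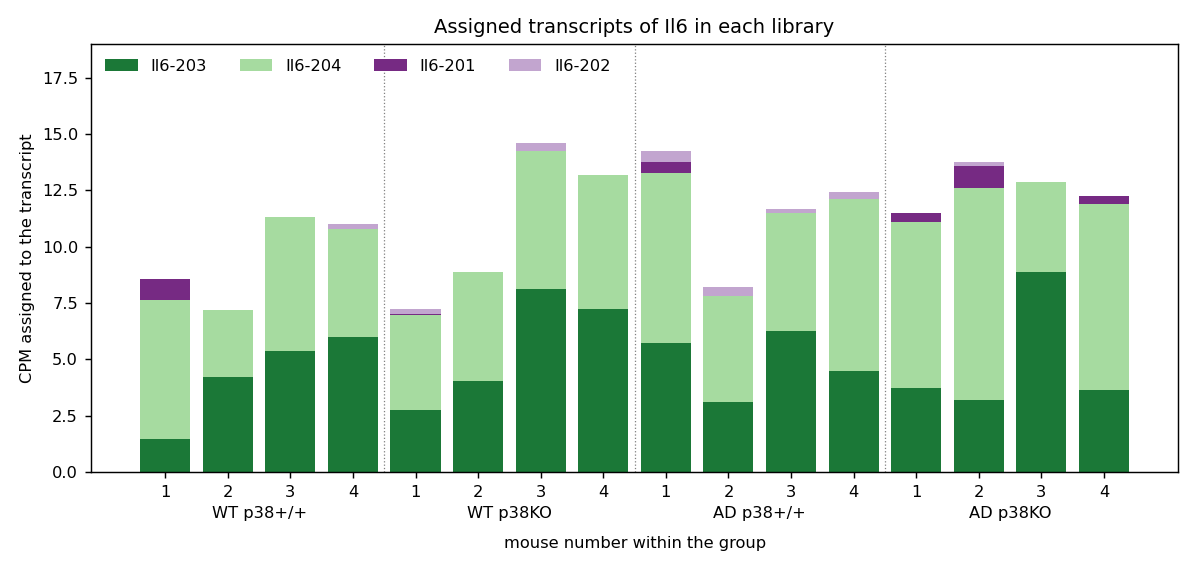
CPM assigned to each of the 4 Il6 transcripts (stacked bars) in the 16 libraries, ordered by group and mouse number on the x axis. Il6-203 and Il6-204 fill at least 89.2% of every bar, and Il6-201 is visible in 5 libraries at 0.979 CPM or less.

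Il6ra (chromosome 3, 89864059 to 89913196, minus strand) was 353 ± 70.8 CPM with and 337 ± 43.8 CPM without p38α in WT mice, and 300 ± 35.9 with and 355 ± 60.7 CPM without it in AD mice (SD, n = 4 each). Single libraries ranged from 260 CPM in AD p38+/+ mouse 1 to 452 CPM in WT p38+/+ mouse 2, and all groups overlapped. Its log2 differences were -0.22 (95% interval -0.53 to 0.09) for AD p38+/+ against WT p38+/+, 0.07 (-0.24 to 0.38) for AD p38KO against WT p38KO, 0.23 (-0.07 to 0.54) for the knockout in AD and -0.06 (-0.36 to 0.25) in WT mice. Gm42809 overlaps Il6ra on the other strand, and whether the counting used strand is not given in the sources used here.

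The reads of Il6ra were split between Il6ra-201, with 79.1 to 88.4%, and Il6ra-202, with 11.6 to 20.9%. Their coding sequences differ by 3 bases (1380 against 1377), shown in capitals at the exon boundary with 21 bases on either side (GENCODE M21, GRCm38, minus strand).
Il6ra-201: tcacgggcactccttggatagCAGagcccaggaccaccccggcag
Il6ra-202: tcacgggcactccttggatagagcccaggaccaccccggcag
The models also differ in length outside the coding part (3343 against 8639 bases in all), which the assignment used as well.

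Il6st (gp130; chromosome 13, 112464070 to 112510086, plus strand) had its highest mean in WT p38+/+ mice, 969 ± 155 CPM, beside 840 ± 111.6 CPM after the knockout on that background, 824 ± 59.9 CPM in AD p38+/+ mice and 775 ± 88.9 CPM in their p38KO counterparts (SD, n = 4 each). WT p38+/+ mouse 2 was highest at 1196 CPM and AD p38KO mouse 1 lowest at 655 CPM, and the groups overlapped in each of the 4 pairwise comparisons. The log2 difference was -0.22 (95% interval -0.48 to 0.03) between AD p38+/+ and WT p38+/+ and -0.20 (-0.46 to 0.05) between WT p38KO and WT p38+/+. In AD p38KO it was -0.11 (-0.37 to 0.14) from WT p38KO and -0.09 (-0.35 to 0.16) from AD p38+/+. Its main transcripts Il6st-201 (49.7 to 67.6% of the reads) and Il6st-203 (31.9 to 49.7%) have the same 2751 coding bases, so their split does not bear on the protein.

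Of 22 other ligands and receptors of the IL-6 and IL-12 families, with the shedding protease Adam10, 13 were in the table and 8 were tested. Of these, 0 were called or reached an unadjusted p under 0.05, beside 3.53 to 12% of all genes at that p. Adam10 was 686 ± 48.1 CPM, Lifr, the gp130 partner for the cytokine LIF, 117 ± 20.7 CPM, and Il11ra1, the IL-11 receptor, 41.2 ± 6.13 CPM (SD, n = 16).

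Il10ra, the ligand-binding chain, lies on chromosome 9 from 45253837 to 45269149 (minus strand), 74632467 bases from Cx3cr1, which carries the Cre, on the same chromosome. In WT mice it was 873 ± 131 CPM with and 824 ± 49.6 CPM without p38α, and in AD mice 794 ± 88.9 with and 736 ± 96.5 CPM without it (SD, n = 4 each). WT p38+/+ mouse 2 was highest at 1037 CPM, AD p38KO mice 4 and 1 were lowest at 652 and 655 CPM, and all groups overlapped. Its log2 differences were -0.13 (95% interval -0.38 to 0.11) for AD p38+/+ against WT p38+/+, -0.17 (-0.41 to 0.07) for AD p38KO against WT p38KO, -0.11 (-0.35 to 0.13) for the knockout in AD and -0.07 (-0.32 to 0.17) in WT mice. Without AD p38KO mice 1 and 4 the AD p38KO differences came to -0.01 from WT p38KO and 0.05 from AD p38+/+. As these mice were the lowest, leaving them out could only raise the group's mean.

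Il10rb, the accessory chain shared with other members of the IL-10 family, lies on chromosome 16 from 91406164 to 91425834 (plus strand). WT p38+/+ mice had 266 ± 43.8 CPM and WT p38KO mice 284 ± 14.6 CPM. AD p38+/+ mice had 272 ± 20.98 CPM and AD p38KO mice 289 ± 22.13 CPM (SD, n = 4 each). The log2 differences lay between 0.02 and 0.11, with 95% bounds from -0.20 to 0.33 among them. Per kb, Il10ra exceeded Il10rb in each library, by 1.17 to 2.48 times (median 1.55). Gm20612 and Mir7086 overlap Il10ra and Gm21970 overlaps Il10rb, so reads of these genes may be shared.

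Among the transcripts of the 9 genes, 23 were listed, 18 were tested and 0 of the 126 tests passed an adjusted p under 0.05, while 14 had an unadjusted p under 0.05 (0.112% and 6.68% of all transcript tests). The 14 fell on Ebi3-201, Tnfrsf1b-201, Il10ra-202, Il10rb-204 and Il6st-206. The last 3 are minor forms at means of 7.43, 5.30 and 4.03 CPM. In each the AD p38KO mean was the lowest of the 4 groups. That follows in large part from picking them by p in comparisons that include AD p38KO. Il10rb-204 in AD p38KO mouse 3 (7.135 CPM) lay above every AD p38+/+ library (4.558 to 7.081 CPM).

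Il10ra-202 was 9.11, 8.38, 12.9 and 6.54 CPM in AD p38+/+ mice 1 to 4 and 6.07, 2.31, 6.90 and 1.93 CPM in AD p38KO mice. Mice 2 and 4 of AD p38KO were the low ones, and the groups overlapped (log2 -1.15, limma adjusted p = 0.427). Its coding sequence lacks 6 bases of Il10ra-201, in capitals here with 21 bases on either side (GENCODE M21, GRCm38, minus strand).
Il10ra-201: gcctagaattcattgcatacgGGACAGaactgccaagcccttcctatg
Il10ra-202: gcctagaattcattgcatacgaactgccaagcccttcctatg
Il10ra-201 held 90.1 to 94.7% of the reads of the gene and Il10ra-202 0.289 to 1.53%.

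In the IL-10 family 3 other genes were in the table, Il22ra2, Il20rb and Ifnlr1, at no more than 2.18, 1.67 and 0.645 CPM, and 0 passed the filter. Of 31 tested genes of JAK-STAT relay and feedback, 0 were called in any comparison. In each, 1 to 5 had an unadjusted p under 0.05, beside 3.53 to 12% of all genes. The list is not limited to the IL-6 and IL-10 receptors. Il4ra (the IL-4 receptor), Ptpn6 (the phosphatase SHP-1) and Jak1 led that list at 372 ± 36.2, 336 ± 21.1 and 322 ± 35.3 CPM (SD, n = 16). Stat3 was 227 ± 17.2 CPM and its feedback inhibitor Socs3 52.4 ± 7.40 CPM (SD, n = 16), both picked after their values were seen, and 0 of 7 tests called either.

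Of 14 tested genes by which p38 and MK2 control cytokine mRNA, 0 were called. In each comparison, 0 to 3 had an unadjusted p under 0.05, beside 3.53 to 12% of all genes. Zfp36l2 and Zfp36, which promote decay of AU-rich mRNA, were 395 ± 68.4 and 185 ± 43.3 CPM, and Elavl1 (HuR), which stabilizes such mRNA, was 169 ± 18.9 CPM (SD, n = 16). For the knockout in AD mice, Zfp36 differed by -0.19 on the log2 scale (SE 0.201, limma adjusted p = 0.920) and Zfp36l2 by 0.04 (SE 0.175, limma adjusted p = 0.983).

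As a description over the 16 libraries, Pearson's r of log2(CPM + 0.5) found the genes whose pattern was most like each of the 9. For Ebi3 these were Vkorc1l1 (r = 0.907), Zmat1 (0.905) and Rita1 (0.904), for Il10ra Tmem63a (0.878), Bicra (0.858) and Zmym3 (0.836), and for Il10rb Ube2n-ps1 (0.920), Immp1l (0.895) and Ube2b (0.831). For Tnfrsf1a they were Orai1 (0.846) and Tmem115 (0.836), and for Tnfrsf1b Slc12a9 (0.872), Ctdspl2 (0.841) and Slc5a10 (0.841). For Il6ra they were Nfam1 (0.866), 9930104L06Rik (0.862) and Zfp410 (0.846), and for Il6st Hipk3 (0.872), Tug1 (0.838) and Ganc (0.817). The ligands gave Slc2a10 (0.819), Ank1 (0.793) and Egf (0.792) for Tnf, and Ndufaf8 (0.794), Gm2199 (0.698) and Ccnh (0.696) for Il6. These were the highest among all 13912 genes tested, in the same libraries, which share their depth and scaling. AD p38KO mouse 4, at 108.8 on the first principal component, held the lowest Ebi3 (13.7 CPM). A single library so far apart can weigh heavily on r, and r without it was not computed.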

How the data were processed

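RNA from sorted microglia of 16 mice was analysed, 1 library per mouse and 4 mice per group, as the labels give them. The authors aligned reads with STAR, assigned them to mm10 (GRCm38) transcripts in Partek 10.0.22.0828 and deposited values as CPM plus 0.0001, which was subtracted again. Between 73.8 and 79.9% of low values were whole multiples of 1 read (tolerance 0.05), so counts were not recovered, and depth was estimated from the most frequent low value. Floors cover counting error only. All columns were mapped (0 left out).

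The fit took the 13912 genes and 34322 transcripts that reached 1 CPM in 4 or more libraries. It used limma-trend (limma 3.58.1, R 4.3.3) on log2(CPM + 0.5), with all 16 libraries in 1 model. Tests were two-sided and Benjamini-Hochberg adjusted within a comparison. The 0.5 CPM added before the log understates the change of low genes. Changes are called at an adjusted p under 0.05. The fit was tested on simulated data. Levels per kb sum each transcript's CPM over its length. Models and sequences came from GENCODE M21. Figures were drawn with matplotlib 3.10.9 in Python 3.11.15.

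The 9 genes and the 15 other lists, from general knowledge, were chosen with earlier results of these data known. Named from each list were genes called in any comparison and the 3 with the highest CPM, and for likeness the 3 highest r (1 of these is not reported here); exceptions are marked. Alternatives changed pseudocount, filter, scaling (TMM and quantile), weights, covariates, the replicate block and the libraries included. Same-numbered mice are different animals, and 2 of 24 pairs of same-numbered groups had a correlation of deviations above 0.1 (median -0.01). Both were between WT p38+/+ and WT p38KO (0.184 and 0.134). These correlations cannot exclude a pairing, and the main fit did not use the numbers as pairs.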

Additional observations from a re-analysis of the deposited data

Results flagged for a closer look

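In WT p38KO mice, Il6ra stood at 271.7 CPM in mouse 2 and at 354 to 366 CPM in the other 3, a gap of 0.878 of the group's range, past Dixon's 95% critical value for 4 samples. It was the single such value among 36 groups of 4 (9 genes in 4 groups), where chance gives about 1 in 20. The same library had the highest Tnf of the series, 16.4 CPM.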

How the results depend on the processing

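The count of genes called stayed at 0 of 9 under each of the 28 or 29 alternatives of every comparison, and at 0 of 18 transcripts under 22. Leaving out each mouse in turn gave 0 to 0. With the mouse number as a replicate block, with or without sex as labelled, it was also 0. The lowest adjusted p that any alternative gave was 0.0579, for Ebi3 in AD p38KO against WT p38KO without AD p38KO mouse 2, where the range over alternatives was 0.0579 to 0.584. With array weights Ebi3 differed by -0.58 from WT p38KO and -0.52 from AD p38+/+. Among single fold changes under alternatives, 14 moved by over 1 SE, all of Ebi3, Tnf or Il10ra, and 1786 did not. The sign turned in 65 of them, all uncalled and at most 0.22 in size on the log2 scale, as for Tnf with array weights (from -0.22 to 0.16 for the APP/PS1 main effect and from -0.15 to 0.16 for the p38 KO main effect). TMM and quantile scaling moved the median of all genes by less than 0.1 on the log2 scale. Of the other genes called, Tnfsf8 lost its call without any 1 of 10 libraries, and Ccl3, Ccl4 and Egr2 kept theirs for the APP/PS1 main effect in 16 of 16 such fits. With 4 mice per group and under 20 CPM, the intervals of Tnf include differences of several-fold.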
